A study of Mus musculus with 36 samples.

Results

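Cytosolic ribosomal protein genes were defined by name, as protein-coding autosomal genes of the GRCm38 RefSeq annotation whose symbol begins with Rpl or Rps and a digit, leaving out the Rps6k kinases and the paralogs whose names end in l or l1. The rule gave 75 of 49943 annotated genes, of which 40 encode proteins of the large subunit (Rpl), 29 encode proteins of the small subunit (Rps) and 6 carry another kind of name (Rpl31-ps12, Rpl34-ps1, Rpl37rt, Rps19bp1, Rps23rg1 and Rps27rt). Rps19bp1 encodes a partner of Rps19 rather than a ribosomal protein, and the other 5 are names of copies or neighbours of ribosomal protein genes. Single-strand breaks (SSBs, nicks in 1 strand of the DNA), mapped by SSiNGLe, and AP sites (nucleotides whose base has been lost), mapped by SSiNGLe-AP, were counted in the span of each gene with 1 kb on each side. The libraries came from 24-month-old male C57BL/6J mice, with 2 libraries per assay from each of 6 tissues: whole brain, heart and liver, bone marrow after lysis of red cells, peripheral blood mononuclear cells (PBMCs) isolated on a Ficoll gradient, and motile sperm from the tail of the epididymis. All 24 libraries shared age, sex and strain, and no group was treated. Genomic DNA of sperm was purified with a different kit from that of the other 5 tissues, so tissue and kit cannot be told apart in comparisons with sperm. Ground whole organs mix many cell types, and lesion lists alone did not allow the tissue labels to be checked against marker genes.

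Ribosomal proteins assemble with ribosomal RNA into the large and small ribosomal subunits, and their genes are transcribed at high levels in nearly all growing and most resting cells. The genes are short, are scattered over the chromosomes, start within a run of pyrimidines and often lie in CpG-rich promoters, and many carry small nucleolar RNAs in their introns. SSBs and AP sites arise continually from oxidation, spontaneous base loss and base excision repair, and SSBs also arise as intermediates of topoisomerase action.

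The 75 members lay on 18 autosomes, with the largest number, 13, on chromosome 7, and their spans ran from 374 to 16779 bp with a median of 3175 bp. Their windows covered 430.44 kb in all, within which 2539 SSB positions and 3249 AP positions were listed over the 12 libraries of each assay. Other genes were annotated inside the windows of 53 members, and other protein-coding genes inside those of 29, so that a lesion in a window is not always a lesion of the ribosomal protein gene. Annotated pseudogenes bearing the member's name existed for 52 members, up to 23 for 1 of them, and how the deposited lists treat reads that fit several copies is not given in the sources used here.

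The letters before the start are shown first because the region just upstream of the start held the densest SSBs. RefSeq promoter sequences of GRCm38.p6 were matched for 55 of the 75 members, and the 250 bases before the start are printed 5′ to 3′ on the gene's strand for 4 of the members with the most SSBs there. The start is that of the promoter table, which was the first base of the annotated span in 46 of the 55 members and lay inside the span in the other 9, by over 1000 bp in 4 of them. In Rpl7a it lay 122 bp inside, so that the last 122 of the printed bases belong to the annotated span. Members whose start lay over 300 bp inside the span were not printed, among them Rpl22, with 15 SSBs in its promoter sequence. Capitals mark nucleotides at which an SSB was listed on either strand in at least 1 of the 12 libraries. They are Rpl13a, a large subunit protein also known for silencing of inflammatory mRNAs (chr7:45128746-45128995, minus strand), Rps21, a small subunit protein (chr2:180257129-180257378, plus strand), Rpl7a, a large subunit protein whose introns carry small nucleolar RNAs (chr2:26910557-26910806, plus strand), and Rps13, a small subunit protein whose introns do the same (chr7:116334191-116334440, minus strand).
Rpl13a: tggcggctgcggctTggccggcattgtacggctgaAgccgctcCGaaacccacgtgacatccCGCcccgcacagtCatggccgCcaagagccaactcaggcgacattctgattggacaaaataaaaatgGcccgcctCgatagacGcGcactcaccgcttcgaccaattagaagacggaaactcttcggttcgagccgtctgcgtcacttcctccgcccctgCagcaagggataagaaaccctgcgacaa
Rps21: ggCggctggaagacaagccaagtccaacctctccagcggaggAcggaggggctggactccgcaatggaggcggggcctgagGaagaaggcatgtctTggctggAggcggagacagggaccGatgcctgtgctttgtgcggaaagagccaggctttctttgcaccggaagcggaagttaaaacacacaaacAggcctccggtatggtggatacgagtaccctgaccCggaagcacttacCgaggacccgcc
Rpl7a: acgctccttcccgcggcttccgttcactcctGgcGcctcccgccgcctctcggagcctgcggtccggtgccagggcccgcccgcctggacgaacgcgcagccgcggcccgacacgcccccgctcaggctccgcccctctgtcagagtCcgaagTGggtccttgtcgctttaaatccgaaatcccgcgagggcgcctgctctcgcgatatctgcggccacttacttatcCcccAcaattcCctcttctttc
Rps13: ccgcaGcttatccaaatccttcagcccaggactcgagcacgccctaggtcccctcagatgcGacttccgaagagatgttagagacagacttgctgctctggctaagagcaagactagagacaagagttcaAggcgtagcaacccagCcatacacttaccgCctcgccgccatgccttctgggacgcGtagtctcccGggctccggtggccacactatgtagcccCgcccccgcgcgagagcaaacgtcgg

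The Rpl13a stretch held 14 SSBs at 14 nucleotides from 8 libraries of 5 tissues, 6 of them from bone marrow and 0 from sperm, against 2 AP sites. The Rps21 stretch held 9 SSBs from 6 libraries of 4 tissues, 2 of them from bone marrow and 0 from sperm, and 4 AP sites. In neither stretch were the capitals gathered at 1 nucleotide. Those of Rps21 ran from near the first base to near the last, whereas all those of Rpl13a but the last lay ahead of a long run without any. The Rpl7a stretch held 8 SSBs from 4 libraries, 4 of them from bone marrow, and the Rps13 stretch held 8 from 5 libraries, 1 of them from bone marrow. They held 4 and 5 AP sites. Rpl10a, not printed, also had 8 SSBs in this stretch, but 9 AP sites. Over the 55 stretches together, 218 SSBs fell in 49 and 137 AP sites fell in 51.

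Most listed nucleotides were seen in a single library. Of 2524 nucleotides with an SSB in the members' windows, 17 were listed in 2 or more libraries, and of 3215 nucleotides with an AP site, 40 were. The highest recurrence was 3 libraries, for an SSB at position 33824440 of chromosome 17 in Rps28, a small subunit protein gene, in PBMC replicate 2, bone marrow replicate 2 and liver replicate 2. The highest deposited count at any of these nucleotides was 2. In all, 24 nucleotides were listed in both assays. The members' lesions were therefore described by density and not by site.

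Summed over the members, SSB density was higher than in protein-coding genes at large in every library of every tissue, and it was highest in bone marrow. Density is given as lesions per kb and library depth (LPKM), that is, listed positions per kb of window and per 1000000 positions of the library. LPKM-SSB of the 75 members was 1.03 ± 0.274 (SD, n = 12) and ranged from 0.717 to 1.68, and their LPKM-AP was 0.855 ± 0.0520 (n = 12), from 0.778 to 0.927. The 20665 autosomal protein-coding genes, counted in the same way, had an LPKM-SSB of 0.532 ± 0.0126 and an LPKM-AP of 0.528 ± 0.00839. Members thus stood at 1.93 ± 0.465 times protein-coding genes for SSBs (1.39 to 2.98) and 1.62 ± 0.0862 times for AP sites, above 1 in 12 of 12 libraries of each assay. Because lesion density was higher in short genes, the 7343 protein-coding genes with spans of at most 10 kb were the closer comparison. Against these the members stood at 1.25 ± 0.187 times for SSBs, from 1.01 to 1.63, and at 1.17 ± 0.0652 times for AP sites, again above 1 in 12 of 12 libraries of each assay.

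The tissues were separated by the summed SSB density, whereas AP densities of most tissues overlapped. In bone marrow the summed LPKM-SSB was 1.68 in replicate 1 and 1.27 in replicate 2, in liver it was 1.16 in both, and in heart it was 1.04 and 1.15. In brain it was 0.945 and 0.940, in PBMCs 0.805 and 0.752, and in sperm 0.781 and 0.717. Both bone marrow libraries therefore lay above all 10 others, liver lay above heart, heart above brain, and brain above PBMCs and sperm, without overlap between the 2 libraries of neighbouring tissues except between PBMCs and sperm. The counting intervals (95%, exact Poisson) of neighbouring tissues overlapped, for example 1.06 to 1.51 for the lower bone marrow library and 1.04 to 1.30 for the higher liver library, while that of bone marrow replicate 1 (1.50 to 1.87) and those of both sperm libraries (up to 0.929) did not. The mean was 1.97 times as high in bone marrow as in sperm, 1.70 times without bone marrow replicate 1 and 2.24 times without bone marrow replicate 2.

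**Figure D1:**
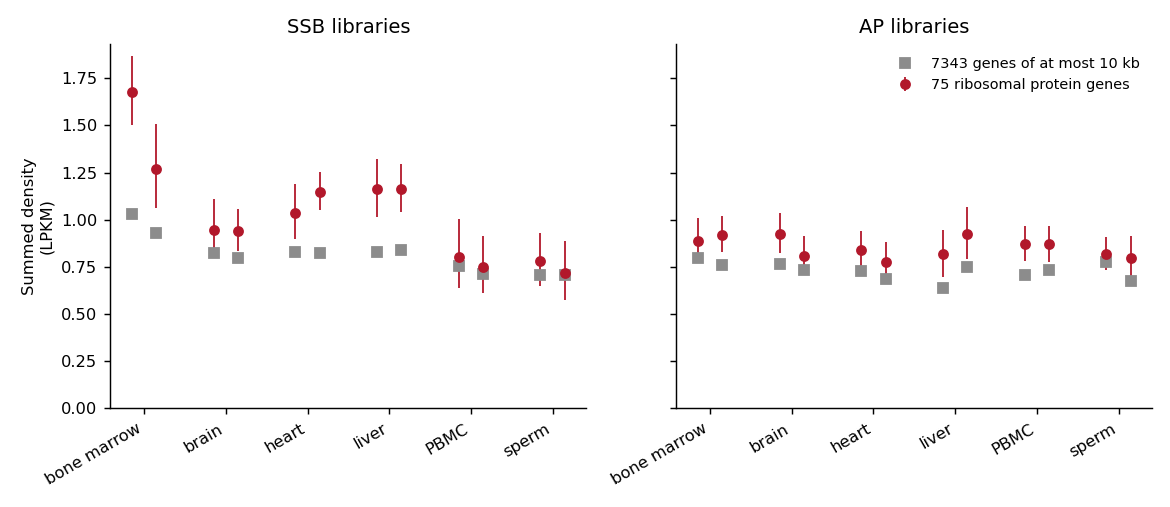
Summed density of lesions in LPKM (y axis) for each library by tissue (x axis), with SSB libraries in the left panel and AP libraries in the right. Red circles are the 75 ribosomal protein genes with 95% Poisson intervals, and grey squares are the 7343 protein-coding genes of at most 10 kb. Red circles of bone marrow reach 1.68 and those of sperm lie at 0.717 and 0.781, whereas AP values stay between 0.778 and 0.927.

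Part of the order by tissue was shared by other short genes, whose LPKM-SSB ranged from 0.707 to 1.03. Relative to those genes in the same library, the members stood at 1.50 times in bone marrow, 1.39 in liver, 1.32 in heart, 1.16 in brain, 1.06 in PBMCs and 1.06 in sperm (means of 2 libraries). LPKM-AP was 0.885 and 0.921 in bone marrow, 0.927 and 0.809 in brain, 0.839 and 0.778 in heart, 0.816 and 0.923 in liver, 0.870 and 0.869 in PBMCs and 0.818 and 0.800 in sperm. These AP values overlapped between most tissues, and the mean in bone marrow was 1.12 times that in sperm. SSB libraries held from 225011 to 1041983 positions and AP libraries from 460719 to 963258. The 4 lowest counts of members in an SSB library, 78 and 99 positions in PBMCs and 126 and 86 in sperm, were in the tissues with the lowest densities. Bone marrow replicate 2 held 129 positions and had the second highest density. The part of depth in these densities was not tested.

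Pooled over the libraries, SSB density of the members was highest around the start of the genes. It exceeded that of other short genes on both sides of the span as well as in its first 1 kb. In sperm, however, LPKM-SSB of the members averaged 0.495 in the 1 kb before the start, from 18 positions, below the 0.642 of short genes. Segments were set by the annotated span, for the 55 members whose strand was known from the promoter sequences. Pooled LPKM-SSB was 1.28 in the 1 kb before the start, 1.57 in the first 1 kb of the span, 0.844 in the rest of the span and 0.946 in the 1 kb after the end. The 5909 short protein-coding genes with a known strand had 0.839, 1.12, 0.808 and 0.621 in the same segments. The 69 mitochondrial ribosomal protein genes with a known strand had 1.21, 1.34, 0.591 and 0.654. Their intervals before the start (1.10 to 1.32) and in the first 1 kb (1.22 to 1.46) overlapped those of the members (1.16 to 1.42 and 1.43 to 1.72). A high SSB density around the start was thus not particular to the members. In these pooled values, members and other short genes were closest in the body of the gene, where the intervals were 0.786 to 0.906 and 0.803 to 0.814. Their pooled intervals were apart in the other 3 segments, the 1 kb after the end included (0.839 to 1.06 and 0.612 to 0.629). For AP sites the members had 0.701 before the start, 1.08 in the first 1 kb, 0.802 in the rest and 0.847 after the end, beside 0.634, 0.888, 0.775 and 0.562 in short genes, and the intervals were apart in the first 1 kb (0.992 to 1.18 and 0.880 to 0.897) and after the end (0.767 to 0.933 and 0.556 to 0.569).

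In bins of 200 bp around the start of the promoter table, LPKM-SSB of the members was 0.610 at the far upstream end, 1.57 between 400 and 201 bp before the start, 3.06 (95% Poisson interval 2.64 to 3.54, 186 positions) in the last 200 bp before it and 2.49 in the first 200 bp of the gene. It then fell through 1.73 and 1.57 to 0.873 between 800 and 999 bp after the start. The short genes had 1.33 in the last 200 bp before the start and 1.31 in the first 200 bp after it. LPKM-AP of the members also rose towards the start, from 0.402 at the far upstream end to 1.08 in both of these bins. It had no such peak there, and its highest value, 1.24, lay between 200 and 399 bp after the start.

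**Figure D2:**
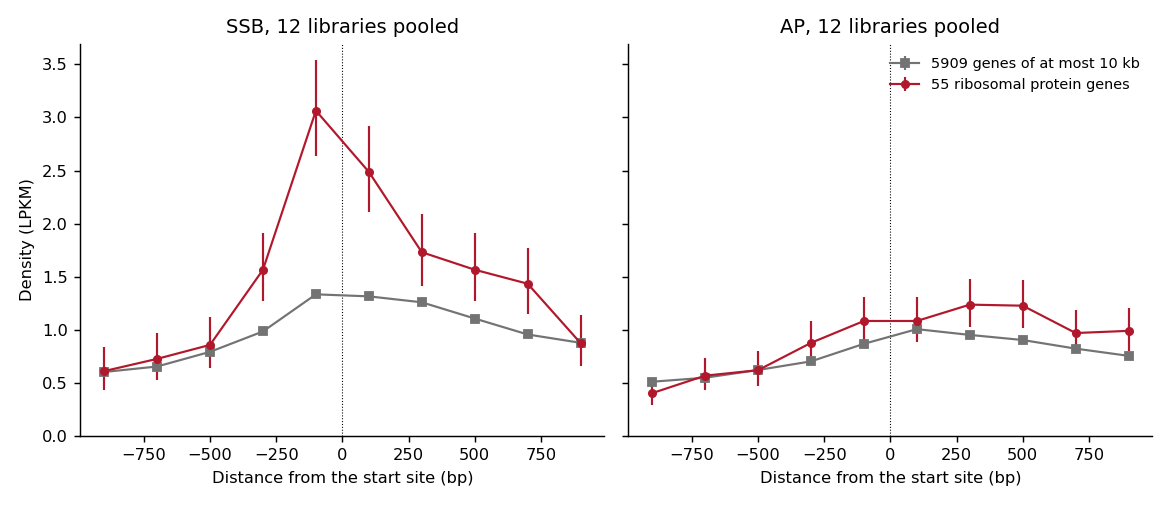
Lesion density in LPKM (y axis) in 200-bp bins by distance from the start site in bp (x axis), pooled over 12 SSB libraries (left) and 12 AP libraries (right). Red circles are 55 ribosomal protein genes and grey squares 5909 protein-coding genes of at most 10 kb, with 95% Poisson intervals. SSBs of ribosomal protein genes reach 3.06 just before the start beside 1.33 in the short genes, and AP sites stay at or below 1.24.

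The peak before the start differed between tissues far more than the body of the gene did. Within the 250 bases printed above for 4 members, LPKM-SSB over the 55 members was 6.82 and 5.55 in the 2 bone marrow libraries, 2.93 and 3.001 in heart, 2.45 and 3.46 in liver and 1.81 and 2.94 in brain. In PBMCs it was 1.29 and 0.476, and in sperm 0.582 and 1.04. Both bone marrow libraries exceeded all others, heart and liver and brain overlapped each other, and PBMCs and sperm lay below all of these. The low values rested on few positions, 6 in PBMCs and 7 in sperm, against 61 in bone marrow. In short protein-coding genes the same 250 bases had a mean of 1.91 in bone marrow, 1.32 in heart, 1.32 in liver, 1.23 in brain, 0.894 in PBMCs and 0.813 in sperm. Members were thus above short genes in bone marrow, heart, liver and brain, whereas in sperm (0.813) and PBMCs (0.884) their means were close to those of short genes.

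The bone marrow value was spread over many members: 32 of the 55 had at least 1 SSB in this stretch in bone marrow, and the most were 6, in Rpl13a. Without Rpl13a the bone marrow mean was 5.74. In the rest of the span, by contrast, LPKM-SSB was 0.957 in bone marrow, 0.944 in liver, 0.897 in heart, 0.808 in brain, 0.617 in PBMCs and 0.588 in sperm. Short protein-coding genes had 0.914, 0.811, 0.798, 0.809, 0.760 and 0.732 there, in the same order of tissues. In PBMCs and in sperm, both libraries of the members lay below both values of the short genes. LPKM-AP in the 250 bases averaged 1.66 in bone marrow, with libraries at 1.93 and 1.38, and between 0.970 and 1.07 in the other 5 tissues, whose highest library, in PBMCs, had 1.36.

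**Figure D3:**
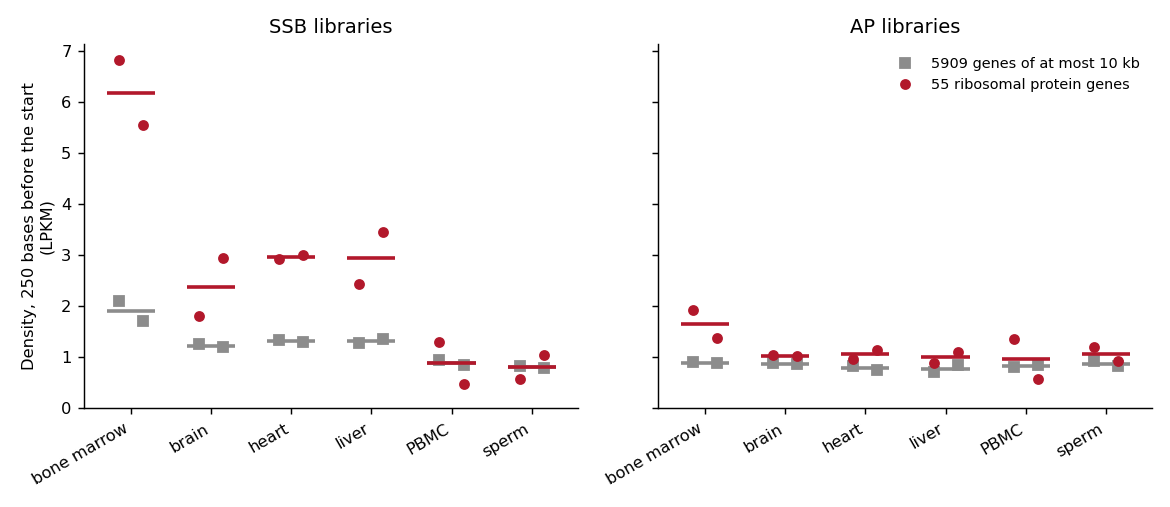
Lesion density in LPKM (y axis) in the 250 bases before the start for each library by tissue (x axis), for SSBs (left) and AP sites (right). Red circles are 55 ribosomal protein genes, grey squares the protein-coding genes of at most 10 kb with a known start, and horizontal bars the mean of the 2 libraries. For SSBs the red bars fall from 6.18 in bone marrow to 0.813 in sperm, and in sperm and PBMCs they lie on the grey ones.

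SSBs in the members' spans were listed more often on the gene's own strand than on the other. Of 1242 SSBs within the spans of the 55 members, 719 (57.9%, 95% Clopper-Pearson interval 55.1 to 60.7%) were listed on the gene's strand, and by library the share ranged from 50.0 to 70.2%. In short protein-coding genes the share was 53.1%. In the 1 kb before the start the share in members was 46.4% (41.4 to 51.5%), beside 47.8% in short genes. In the last 200 bp before the start of the promoter table it was 54.8% in members. For AP sites it was 50.7% (48.2 to 53.1%) in the members' spans and 49.1% in short genes. The files do not say whether the listed strand is the broken strand, so only the listing is given. These intervals cover counting error only.

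The letters at the lesions in the 55 promoters (250 bases before to 50 after the start) resembled those in promoters of all protein-coding genes at most positions. The base just before the listed nucleotide of an SSB, read on the listed strand, was C in 63.0% of 265 SSBs, beside 56.9% in 16457 promoters, while C made up 28.4% of the letters of the members' promoters. The nucleotide listed for an AP site was G in 41.1% and A in 31.0% of 168 AP sites, beside 37.6% and 36.8% in all promoters. The base before it was G in 44.0% (Clopper-Pearson interval 36.4 to 51.9%), which lay above the 35.0% of all promoters. The members' promoters themselves differed from the rest in composition. CCGGAAG, the ETS family core on either strand, was found in 36.4% of the members' promoters and 12.3% of all promoters, and CTTTCC, read on the gene's strand as a pyrimidine run, in 36.4% and 13.9%. TATAAA was found in 5.45% and 13.5%, the Sp1 box GGGCGG in 52.7% and 47.3% and AAGATGGC, a YY1 core, in 7.27% and 3.23%, each on either strand. The median number of CG dinucleotides was 21 in members and 14 in all promoters. Of the 4 stretches shown above with their first 50 transcribed bases, all 4 held GGGCGG, that of Rps21 also held CCGGAAG, and that of Rpl13a held AAGATGGC and CTTTCC.

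Single members varied around the group's density, and for most of them the variation was within counting error. Pooled over 12 libraries, LPKM-SSB of the members had a median of 1.12 and ran from 0.219 to 2.25, and LPKM-AP had a median of 0.871 and ran from 0.0912 to 1.54. All 20665 protein-coding genes had medians of 0.624 and 0.613. A member had a median of 2 SSB positions and 3 AP positions per library, and 17% of the SSB values and 7% of the AP values of single members in single libraries were 0. The 95% Poisson interval of the pooled value held the value of all members together (1.07 for SSBs and 0.855 for AP sites) in 57 of 75 members for SSBs and 56 for AP sites. It lay above in 9 for SSBs and 8 for AP sites, and below in 9 and 11. Across the 75 members, which share libraries, depth and window length, SSB and AP densities had a Spearman correlation of 0.513, and replicates 1 and 2 had 0.486 for SSBs and 0.490 for AP sites.

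Among the large subunit genes, the highest LPKM-SSB was that of Rpl41, which encodes a very short basic protein, with 2.25 (interval 1.59 to 3.09), followed by Rpl7a with 1.80 and Rpl18, a structural protein of the large subunit, with 1.67. Rpl41 had 11 SSB positions in bone marrow replicate 1 and 11 in heart replicate 2, 0 to 5 in the other 10 libraries, and 0 in both sperm libraries. Its signal therefore rested mainly on 2 libraries. Rpl12, a protein at the base of the stalk, had the highest LPKM-AP, 1.54 (1.17 to 1.99), and Rpl41 and Rpl18 were also among the 5 highest for AP sites, with 1.33 and 1.26. Rpl3, at the peptidyl transferase centre, was above the group value in both assays, with 1.59 and 1.14. Rpl13a had an LPKM-SSB of 1.61, with 4.21 and 3.27 in bone marrow and 0.432 to 1.67 in the other 10 libraries, so that both bone marrow libraries were clear of the rest.

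Rpl5 and Rpl11, which bind 5S ribosomal RNA and hold Mdm2 when ribosome assembly is disturbed, were not among the high members. Rpl5 had an LPKM-SSB of 0.759, with an interval below the group value, and an LPKM-AP of 0.831, and Rpl11 had 0.930 and 0.582, the latter with an interval below the group value. Rpl26, known to bind the p53 mRNA, had 0.912 and 0.844, and its intervals held the group value in both assays. Rpl23, another Mdm2-binding protein, had the lowest LPKM-SSB of the genes with an Rpl or Rps name alone, 0.655, and 0.820 for AP sites. Rpl38, a protein known for its role in patterning of the axial skeleton, had 0.918 for SSBs and was among the 5 lowest for AP sites, with 0.504.

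Among the small subunit genes, Rps21 and Rps13 had the highest LPKM-SSB, 2.07 and 1.78. Rps21 had 8 SSB positions in bone marrow replicate 1, 0 in bone marrow replicate 2, 11 in liver replicate 2 and 0 in both sperm libraries, and its bone marrow libraries were thus the highest and, with PBMC and sperm libraries, the lowest of all. Rps19, mutated in Diamond-Blackfan anaemia, had a high LPKM-AP, 1.29, beside an LPKM-SSB of 1.25. Rps3, which sits at the mRNA entry and also has lyase activity at AP sites, had 0.765 and 0.841. Rps6, the target of the S6 kinases, had 0.757 and 0.968. Rps14, lost in the 5q- syndrome, had 0.731 and 1.10, and Rps27a, made as a fusion with ubiquitin, had 1.04 and 0.648. All of these intervals but those of Rps21 and Rps13 for SSBs and of Rps19 for AP sites held the group value.

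The 6 members with another kind of name were the low end of the group. Rpl31-ps12 had 3 SSB positions and 2 AP positions in all 24 libraries, at LPKM of 0.219 and 0.0912, the lowest of both assays. Rps27rt had 0.305 and 0.286, Rps23rg1 0.338 and 0.410 and Rpl37rt 0.407 and 0.509. Rps19bp1 (0.891 and 0.717) and Rpl34-ps1 (0.826 and 1.08) lay within the range of the other members. The 6 together had a summed LPKM-SSB of 0.441 ± 0.214 (n = 12), beside 1.11 ± 0.272 for the 40 Rpl genes and 1.07 ± 0.343 for the 29 Rps genes. The corresponding LPKM-AP values were 0.488 ± 0.110, 0.903 ± 0.102 and 0.879 ± 0.0830. Over all tissues the means of the large and the small subunit thus differed by less than the spread between libraries in both assays, a spread that includes the differences between tissues. Within sperm, LPKM-SSB was 0.925 and 0.830 for Rpl genes and 0.749 and 0.641 for Rps genes, and LPKM-AP was 0.787 and 0.779 for Rpl genes and 0.980 and 0.924 for Rps genes, so that the subunits did not overlap in either assay and their order was opposite. In bone marrow LPKM-AP was 1.09 and 1.02 for Rpl genes and 0.690 and 0.890 for Rps genes. These differences within tissues were not tested.

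**Figure D4:**
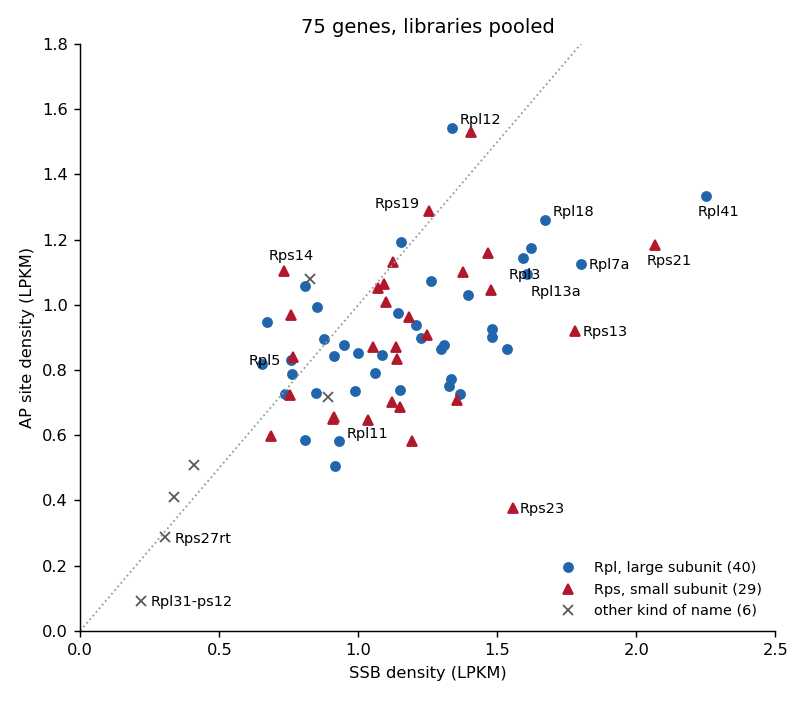
LPKM-AP (y axis) against LPKM-SSB (x axis) of the 75 members, each pooled over the 12 libraries of its assay. Circles are Rpl genes, triangles Rps genes and crosses members with another kind of name, and the dotted line marks equal values. Rpl41 and Rps21 lie furthest to the right, Rps23 lies far below the line at 1.56 and 0.377, and Rpl31-ps12 and Rps27rt lie nearest to the origin.

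Over whole windows, the following lists of related genes had lower means than the members. The 78 mitochondrial ribosomal protein genes had 0.657 ± 0.0613 and 0.614 ± 0.0416, the 68 translation factors 0.631 ± 0.0623 and 0.599 ± 0.0353 and the 30 ribosome biogenesis genes 0.719 ± 0.0744 and 0.653 ± 0.0404. These lists were longer genes, with median spans of 7690.5, 15152 and 15384 bp. The 265 pseudogenes of ribosomal proteins, with a median span of 528 bp, had 0.472 ± 0.0430 and 0.476 ± 0.0229. They lay above protein-coding genes as a whole in only 2 of 12 SSB libraries and 0 of 12 AP libraries. Relative to short protein-coding genes they stood at 0.587 and 0.656 times. The 4 X-linked ribosomal protein genes, present as 1 copy per diploid male cell, had 0.577 ± 0.314 and 0.498 ± 0.258, and the 7 paralogs that the rule left out 0.780 ± 0.138 and 0.674 ± 0.146. The highest library of the mitochondrial list, 0.828, lay within the range of the members, from 0.717 up.

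**Figure D5:**
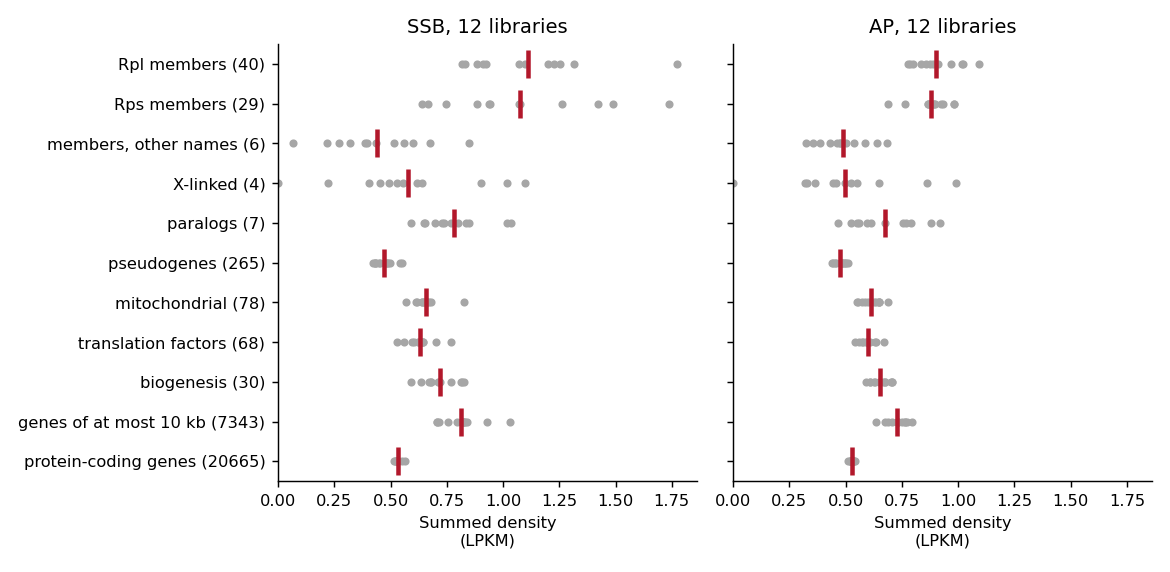
Summed density in LPKM (x axis) of each list of genes (y axis, with the number of genes in parentheses) in the 12 SSB libraries (left) and the 12 AP libraries (right). Grey points are libraries and red bars their means. Rpl and Rps members have means of 1.11 and 1.07 for SSBs, above the 0.815 of protein-coding genes of at most 10 kb and the 0.472 of the pseudogenes.

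Member by member, no tissue difference passed the test across all genes. In edgeR's quasi-likelihood test over 6 tissues, 0 of 74 members tested for SSBs passed an adjusted p of 0.05 (48 of 45193 genes, 0.106%), and 4 had an unadjusted p below 0.05 (4.93% of genes). The smallest p among members was 0.00888 for Rps21 (adjusted p = 0.675, edgeR). In sperm against the other tissues 0 of 74 members passed (7 genes, 0.0155%), 6 had an unadjusted p below 0.05 (5.42% of genes), and DESeq2 called 0 members and 0 genes. For AP sites 0 of 74 members passed in either comparison, nor did any of the 46917 genes (0.0%), with unadjusted p below 0.05 in 3 members for tissue (2.99% of genes) and 3 for sperm (4.02% of genes). DESeq2 gave no member with an adjusted p below 0.05 for AP sites either, and no adjusted p at all for the members in the SSB test over tissues. Rpl31-ps12, with 5 positions, was the member left out by the requirement of a position in at least 20% of the libraries.

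Though no single member passed, the members leaned to 1 side in several tissues. In bone marrow against the other 5 tissues, 57 of 74 members (77.0%) had a higher fitted SSB density, beside 52.1% of all genes and 62.0% of short protein-coding genes. The members' median difference was 0.72 on the log2 scale, beside 0.04 for all genes and 0.28 for short genes, and 0 members were called by edgeR (79 genes, 0.175%). Among the members, the smallest p was that of Rpl41 (log2 difference 2.21, adjusted p = 0.237, edgeR). In liver 55 of 74 members and in heart 53 of 74 were higher, with medians of 0.39 and 0.37, beside 0.16 and 0.22 for all genes and 0.27 and 0.31 for short genes. The members' shares, 74.3% and 71.6%, compared with 61.4% and 67.4% of all genes and 63.3% and 67.6% of short genes, so that in heart they were near the background, and again 0 members were called (0.00221% of genes in liver and 0.00443% in heart). In PBMCs 26 of 74 members (35.1%) were higher and 48 lower, beside 45.4% of all genes and 43.0% of short genes higher, with a median of -0.58 beside -0.08 for all genes and -0.20 for short genes and 0 called (0.00221% of genes). In sperm 26 (35.1%) were again higher and 48 lower, beside 49.9% of all genes and 46.0% of short genes higher, with a median of -0.31 beside -0.11 for short genes, or -0.27 with the 6 members without an SSB in sperm set at their bounds. Brain was near all genes, with a median of 0.15 beside 0.14. For AP sites the members' medians lay between -0.03 and 0.19 in the 6 tissues, beside -0.05 to 0.09 for all genes.

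The members at 0 in sperm show how little depth stood behind a single gene. Rpl41 had 0 SSBs in the 653610 positions of both sperm libraries, which allows up to 3 counts or an LPKM of 1.50, and 38 SSBs at an LPKM of 2.55 in the other tissues, at least 1.70-fold higher. Rps21 was at least 1.57-fold higher in the other tissues than this limit in sperm, with 35 SSBs there. Compared directly, both bone marrow libraries lay above both sperm libraries for 30 of 74 members (40.5%), beside 20.7% of all genes and 26.2% of short protein-coding genes. They lay below for 4 (5.41%), beside 11.6% of all genes and 8.8% of short genes. For liver against sperm 30 members (40.5%) were higher without overlap, beside 18.9% of all genes and 22.7% of short genes. Lower without overlap were 2 members (2.7%), beside 12.4% of all genes and 11% of short genes. For AP sites, bone marrow exceeded sperm without overlap for 15 members (20.3%), beside 18.0% of all genes and 19.6% of short genes.

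Rps15, a small subunit protein near the decoding site, had the smallest p of all 46917 genes for AP sites in sperm against the other tissues and is named after its values were seen. It had 14 and 3 AP positions in the 2 sperm libraries, 2 and 5 in PBMCs, 2 and 4 in brain, 0 and 2 in bone marrow, 0 and 2 in liver and 0 in both heart libraries. Only sperm replicate 1 was clear of the other tissues, and sperm replicate 2 (LPKM-AP of 1.31) overlapped PBMCs and brain. The log2 difference was 2.78 and the p 9.02e-06, which did not pass adjustment (adjusted p = 0.423, edgeR). Without sperm replicate 1 the difference was 1.68 (adjusted p = 0.987, edgeR), so the rank rested on that library.

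Comparing the assays over all tissues, the members leaned towards SSBs, and 1 of 74 passed. In edgeR 736 of 46964 genes (1.57%) differed between SSB and AP libraries, 162 higher in SSBs (0.345%) and 574 lower (1.22%), and without TMM factors the split was 261 higher and 92 lower. The member that passed was Rps23, a protein of the decoding centre, with an LPKM-SSB of 1.56 from 31 positions and an LPKM-AP of 0.377 from 12. It had 4 and 4 SSB positions in bone marrow, 1 and 8 in heart, 3 and 3 in brain, 3 and 2 in liver, 0 and 1 in PBMCs and 1 and 1 in sperm, and 0 to 3 AP positions in every library. Its LPKM ran from 0 to 4.69 over the SSB libraries and from 0 to 1.08 over the AP libraries, so that the groups overlapped. Its log2 ratio was 1.68 (adjusted p = 0.0368, edgeR), and with the tissue sample as a block it was 1.68 with adjusted p = 0.0661, so that the call was lost. It was also lost without any 1 of 8 tissue samples, with edgeR adjusted p of 0.0939 and 0.165 without bone marrow replicates 1 and 2, 0.0618 and 0.159 without heart replicates 1 and 2, 0.0511 without brain replicate 2, 0.0605 without liver replicate 1, 0.0571 without PBMC replicate 2 and 0.0664 without sperm replicate 2.

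Of the other members, Rps10, a protein of the small subunit's head, had a log2 ratio of 0.95 (adjusted p = 0.168, edgeR). Rpl38 had 0.81, Rps13 0.75 and Rpl34, a large subunit protein, 0.73. At the other end Rpl7, a large subunit protein, had -0.58, Rps14 -0.56, Rpl23 -0.52, Rpl6, also of the large subunit, -0.48 and Rpl34-ps1 -0.44. None of these passed the test. The members' median ratio was 0.20 beside -0.09 for all genes, and 6 members had an unadjusted p below 0.05 (12.3% of genes). Short protein-coding genes also leaned towards SSBs, with a pooled LPKM-SSB of 0.821 and LPKM-AP of 0.732, beside 1.07 and 0.855 for the members. How much of the members' lean they share with short genes was not tested. The shift of the scale between the fits with and without TMM factors moved the median of all genes from -0.09 to 0.02 and that of the members to 0.32, so the members lay above all genes in both.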

How the data were processed

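The authors deposited, for each library, raw counts per nucleotide and strand of SSBs or AP sites, unnormalised and not pooled, from their own code; the submitters' processing notes name mm10 and GRCm38, and aligner and filters are not given in the sources used here. RNA profiles and other ages were not analysed here. Each listed position was counted once in 49943 RefSeq genes of GRCm38 (span plus 1000 bp on each side, either strand), and divided by window length and library total. The gene table holds no exons. Single members held a median of 2 SSB and 3 AP positions per library, and precision was limited accordingly.

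Genes with a position in at least 20% of libraries were fitted by edgeR 4.0.16 (TMM, quasi-likelihood F-test, Benjamini-Hochberg over all genes, threshold 0.05), with DESeq2 1.42.0 as alternative, in R 4.3.3. Counts and figures used Python 3.11.15. On simulated data for SSBs against AP sites (46383 genes), 94.8% of 4-fold and 43.3% of 2-fold changes were recovered, and for SSBs over tissues (43663 genes) 44% and 1%. Pairing was checked by correlating deviations from group means: same-numbered tissues correlated from -0.02 to 0.03 for SSBs and from -0.19 to 0.13 for AP sites. The 2 assays of a tissue under the same number correlated from -0.02 to 0.03. The authors state that DNA for both assays came from the same tissue samples, and equal numbers within a tissue were taken to mark 1 sample. Each tissue came from 2 mice, and nothing states that equal numbers mark 1 animal across tissues, so p-values measure the spread between these libraries.

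Named members were the 5 highest and 5 lowest per assay, those past the threshold, the 5 highest and 5 lowest log2 ratios of SSBs to AP sites with at least 20 positions, and 10 fixed for known roles; 1 member is not reported here, nor is 1 list, whose means were not below those of the members. The members and lists were chosen with earlier results of these data known. Contrasts of 1 tissue against the other 5, the 250-base window and Rps15 were added after values were seen. Alternatives were totals without TMM, size factors, filters, spans without flanks, thinning, summed counts, the replicate block and leaving out each library. For SSBs against AP sites, both libraries of a tissue sample were left out together.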

Additional observations from a re-analysis of the deposited data

Results flagged for a closer look

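The ratio of SSBs to AP sites of the members went in opposite directions in different tissues, in both libraries of each. On the log2 scale, the ratio of summed LPKM-SSB to summed LPKM-AP of the 75 members averaged 0.692 in bone marrow (0.92 and 0.46 in the 2 tissue samples), 0.433 in heart, 0.421 in liver and 0.122 in brain (0.03 and 0.22), and every sample of these 4 tissues was above 0. It averaged -0.16 in PBMCs (-0.11 and -0.21) and -0.112 in sperm (-0.07 and -0.16), and every sample of these 2 was below 0. Short protein-coding genes had 0.37 and 0.29 in bone marrow, 0.18 and 0.26 in heart, 0.38 and 0.16 in liver, 0.11 and 0.12 in brain, 0.10 and -0.04 in PBMCs and -0.13 and 0.07 in sperm, so that they were also above 0 in the first 4 tissues, and the first brain sample of the members lay below them and the first sperm sample above. In sperm the 40 Rpl genes were above 0 (0.23 and 0.09) and the 29 Rps genes below (-0.39 and -0.53). The difference between tissues was not tested. The brain, sperm and first PBMC values were close to 0. PBMC and sperm SSB libraries were among the shallower ones, and the part of depth, of the kit used for sperm and of the cells sampled was not tested.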

How the results depend on the processing

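The summed densities and their ratios to protein-coding genes moved by less than the spread between replicates under every alternative run, except that the ratio for AP sites was 1.71 over spans without the flanks. Leaving out 1 library gave summed LPKM-SSB of 0.974 to 1.06, summed LPKM-AP of 0.848 to 0.862, ratios of 1.84 to 1.98 and 1.61 to 1.63, and bone marrow to sperm ratios of 1.70 to 2.24 for SSBs and 1.09 to 1.14 for AP sites. Bone marrow had the highest SSB density in 19 of 19 settings, and PBMCs and sperm the lowest 2 in 19 of 19; the bone marrow to sperm ratio was 2.04 outside the spans of all other genes. For AP sites the order of tissues held in 5 of 19 settings. Counting windows per member rather than as a union was chosen after seeing the data.

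Members called over tissues or in sperm stayed at 0 under every setting run, also without each library (0 to 0). Over SSBs against AP sites, the 1 member called became 0 over spans without flanks, at equal depth and with the replicate block. Without single tissue samples, 0 to 1 members were called. The cause was not tested. Leaving out a tissue sample, with its SSB and its AP library, lost Rps23 in 8 of 12 cases, with log2 ratios of 1.45 to 1.87. Over 20 alternatives the adjusted p of Rps23 ran from 0.0128 to 0.673 (edgeR). DESeq2 gave no adjusted p for any member there or over tissues for SSBs. With the block, 541 genes differed between assays (736 without), 57 over tissues for SSBs (48) and 9 in sperm (7), and 0 for AP sites; it changed no other call of a member. Genes called over tissues for SSBs ran from 4 without bone marrow replicate 1 to 75 with the 80% filter, in sperm from 0 to 38, for AP sites from 0 to 1, and between assays from 12 at equal depth to 736. Members held a median of 2 to 3 positions per library. On simulated data over all genes tested, 44% of 4-fold and 1% of 2-fold changes over tissues were recovered for SSBs, 62.2% and 14.7% for AP sites, and in sperm 53% and 5% for SSBs and 78.6% and 26.5% for AP sites; recovery at the members' own counts was not simulated.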
